A study of Rattus norvegicus with 12 samples.

Results

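The genes described here make peptides for major histocompatibility complex (MHC) class I molecules and load them. They are the inducible catalytic subunits of the immunoproteasome (Psmb8, Psmb9, Psmb10), the subunits of its PA28 activator (Psme1, Psme2), the peptide transporter (Tap1, Tap2), tapasin (Tapbp), the light chain of class I molecules (B2m) and the class I transactivator (Nlrc5). The 10 genes were chosen by name, with earlier results of these data known. Of these, 9 were among the 17315 genes of the count files and 8 had enough reads to be tested, while Tap2 did not and Nlrc5 was not analysed here.

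Gene expression was measured by RNA sequencing of polyadenylated RNA in 12 libraries of cultured cells from Sprague-Dawley rats, labelled as Müller cells, which are the principal glia of the retina. SIRMu-1 (5 libraries; passages 6, 11, 11, 11 and 20) is a spontaneously immortalized line from donors of postnatal day 2 to 4. The rMC-1 line (3 libraries; passages 23, 26 and 26), from adult rats, is known as a line made with the large T antigen of SV40. The primary Müller cell cultures (4 libraries; passages 4, 4, 3 and 3) came from donors of postnatal day 2 to 4. Media held glucose at 25 mM and L-glutamine at 2 mM, with fetal bovine serum at 20% for SIRMu-1 and primary cultures and at 10% for rMC-1. The antifungal amphotericin B (at 2.2 mg/L) and the antibiotic gentamicin (at 87 mg/L) were given to SIRMu-1 replicates 3 and 5 and to every primary culture, and to no rMC-1 culture. Each line is 1 line, so its libraries are cultures of the same cells and say nothing of other lines. The labels call the libraries biological replicates without tying cultures to animals. The p-values therefore rest on the spread among the 12 libraries, part of which may be technical. Donor age, passage, serum and the way of immortalization cannot be told apart in any comparison with rMC-1, nor can drugs in rMC-1 over primary. In SIRMu-1 over primary, immortalization cannot be told apart from passage (6 to 20 against 3 to 4). Of the SIRMu-1 libraries, only replicates 3 and 5 had the drugs that every primary culture had.

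The proteasome cuts proteins of the cytosol into peptides. Interferons, above all interferon gamma, induce the immunoproteasome subunits, which replace their constitutive counterparts in newly built proteasomes, and the PA28 cap, which opens the barrel. The TAP transporter, a dimer of Tap1 and Tap2, carries peptides into the endoplasmic reticulum, where tapasin bridges it to class I heavy chains paired with beta-2-microglobulin. In the resting retina class I presentation is kept low, and retinal glia are known to raise it in inflammation.

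Reads assigned to genes numbered 26349346 to 36730443 per SIRMu-1 library, 27351014 to 38125630 per rMC-1 library and 22582345 to 29812705 per primary library. Of 12 Müller glia markers, 7 averaged over 1 CPM (read count scaled to a common library size) in SIRMu-1, 6 in rMC-1 and 9 in primary cultures. Their sum was 3444 to 4475 CPM in SIRMu-1, 1503 to 1596 CPM in rMC-1 and 7237 to 8741 CPM in primary cultures. Most of each sum came from markers whose single values are not given here. Glul averaged 56.8 CPM in SIRMu-1, 54.8 CPM in rMC-1 and 142.7 CPM in primary cultures. Apoe averaged 2.61, 5.75 and 224.4 CPM in these groups, and Dkk3 382.3, 0.996 and 1224 CPM. Lhx2 went the other way in rMC-1, at 45.25 CPM against 3.77 CPM in primary cultures. Of 10 tested as described below, 0 were called higher and 6 lower in SIRMu-1 over primary. In rMC-1 over primary, 2 were called higher and 6 lower. Among all tested genes, 24.4% were called lower in the first comparison and 38.9% in the second. Sox2, Aqp4, Kcnj10 and Car2 had no count in SIRMu-1, and Aqp4 and Car2 had none in rMC-1, so the labelled cell type rests on the other markers there. Summed fibroblast markers (7 genes) were between 35600 and 52780 CPM in SIRMu-1, between 3357 and 4858 CPM in rMC-1 and between 24980 and 117800 CPM in primary cultures. Col1a1 and Col3a1 made most of the sum, at means of 36740 and 7008 CPM in SIRMu-1 and 56500 and 20130 CPM in primary cultures. Dcn and Lum averaged 4.54 and 3.30 CPM in SIRMu-1 but 681.1 and 161.9 CPM in primary cultures. Pdgfra was near level, at 56.8 CPM in SIRMu-1 against 53.0 CPM in primary cultures. Col1a2 had only 1.84 and 1.67 CPM there, far below Col1a1. Whether the gene model used in the counting covers the whole of Col1a2 is not known here. Of the 7 fibroblast markers, 0 were called higher and 4 lower in SIRMu-1 over primary. In rMC-1 over primary, 0 of them were called higher and 7 lower.

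The start regions of these genes are shown because most of them hold the core of the interferon-stimulated response element (ISRE), the motif bound by interferon regulatory factors. The core was searched on both strands as GAAA, any 2 bases and GAAA, in windows from 250 bases before to 50 bases after the start, taken from RefSeq on the rat assembly GRCr8 and matched by symbol for 9 of the 10 genes. The core was present in 7 of the 9 windows (77.8%), against 3.77% of 27457 promoters and 2.75% of the 8580 promoters of tested genes. It was in 20 of 33 promoters of other interferon-stimulated genes (60.6%), in 4 of 33 of class I heavy chain genes (12.1%) and in 0 of 3 of the constitutive catalytic subunits. Psmb9 and Psme1 were the 2 without it inside their windows. Each stretch below is written 5′ to 3′ along the gene's strand with the motif in capitals; TTTC at both ends of the capitals marks the core on the opposite strand, and in Tapbp 2 cores overlap.
Psmb8 (chr20:4657026-4657055, minus strand): cctcctcttggtgctgtggcTTTCGCTTTC
Psmb10 (chr19:50743293-50743385, minus strand): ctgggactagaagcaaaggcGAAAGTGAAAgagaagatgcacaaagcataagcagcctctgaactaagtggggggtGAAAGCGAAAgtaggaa
Psme2 (chr15:33052775-33052824, minus strand): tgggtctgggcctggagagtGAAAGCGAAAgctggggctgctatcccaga
Tap1 (chr20:4668635-4668684, minus strand): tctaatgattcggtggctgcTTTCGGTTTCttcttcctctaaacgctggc
Tap2 (chr20:4652308-4652357, minus strand): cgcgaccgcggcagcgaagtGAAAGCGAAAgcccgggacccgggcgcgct
Tapbp (chr20:4967878-4967923, minus strand): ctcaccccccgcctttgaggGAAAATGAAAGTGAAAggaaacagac
B2m (chr3:129549160-129549209, plus strand): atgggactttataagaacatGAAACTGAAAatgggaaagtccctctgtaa

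The first base of the core lay 4 bases before the start in Psmb8, 73 and 17 before it in Psmb10, 53 in Psme2, 121 in Tap1, 41 in Tap2, 26 and 20 in Tapbp and 150 in B2m. A kappa B site, a binding motif of NF-kappa B, was searched on both strands as the exact letters in capitals in the Tap1 line below. It was found in Tap1 and, on the opposite strand, in B2m, 2 of the 9 windows, against 0.0947% of all promoters. The pair is shown because these 2 genes combine both motifs.
Tap1 (chr20:4668569-4668618, minus strand): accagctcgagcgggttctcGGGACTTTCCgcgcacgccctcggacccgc
B2m (chr3:129549173-129549222, plus strand): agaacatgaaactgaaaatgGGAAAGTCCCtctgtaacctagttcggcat

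The letters TTCNNNGAA, known as a gamma-activated site, were in the Psmb8 window alone (11.1% of the 9), against 8.68% of all promoters. Tap1 and Psmb9 are read away from each other, and their windows on chromosome 20 overlap by 44 bases. A match describes the letters and was not tested as a site in these cells.

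Of the 8 tested genes, 7 had their highest mean level in rMC-1, and B2m had it in primary cultures. Levels are CPM scaled by TMM factors, which correct for differences in library composition, and are given as mean ± SD. Log2 fold changes are given ± standard error (SE). Genes with an adjusted p below 0.05 count as called. Each adjusted p comes from edgeR's quasi-likelihood test with Benjamini-Hochberg adjustment over 11321 genes. In SIRMu-1 over primary cultures, 0 members were called higher, 5 lower and 3 neither, against a background of 46.1% of all tested genes called, 21.7% higher and 24.4% lower. The median log2 fold change was -0.69 over the members and -0.02 over all tested genes. In rMC-1 over primary cultures, 7 were called higher, 0 lower and 1 neither, against 70.8% of tested genes called, 31.9% higher and 38.9% lower. The medians were 1.43 for the members and -0.15 for all tested genes. In SIRMu-1 over rMC-1, 0 were called higher, 7 lower and 1 neither, against 63.2% called, 32.7% higher and 30.5% lower. The medians were -1.74 for the members and 0.03 for all tested genes. The libraries of the groups did not overlap in 4 members for SIRMu-1 and primary cultures (35.3% of tested genes), 7 for rMC-1 and primary cultures (70.9%) and 7 for SIRMu-1 and rMC-1 (63.0%). Of the directions with 0 calls by edgeR, 1 member, B2m in rMC-1 over primary, was lower at an unadjusted p under 0.05 and was called by DESeq2. The comparisons share libraries, so their counts are not independent of each other. In such bulk samples, fewer cells of a type and less RNA per cell cannot be told apart.

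**Figure D1:**
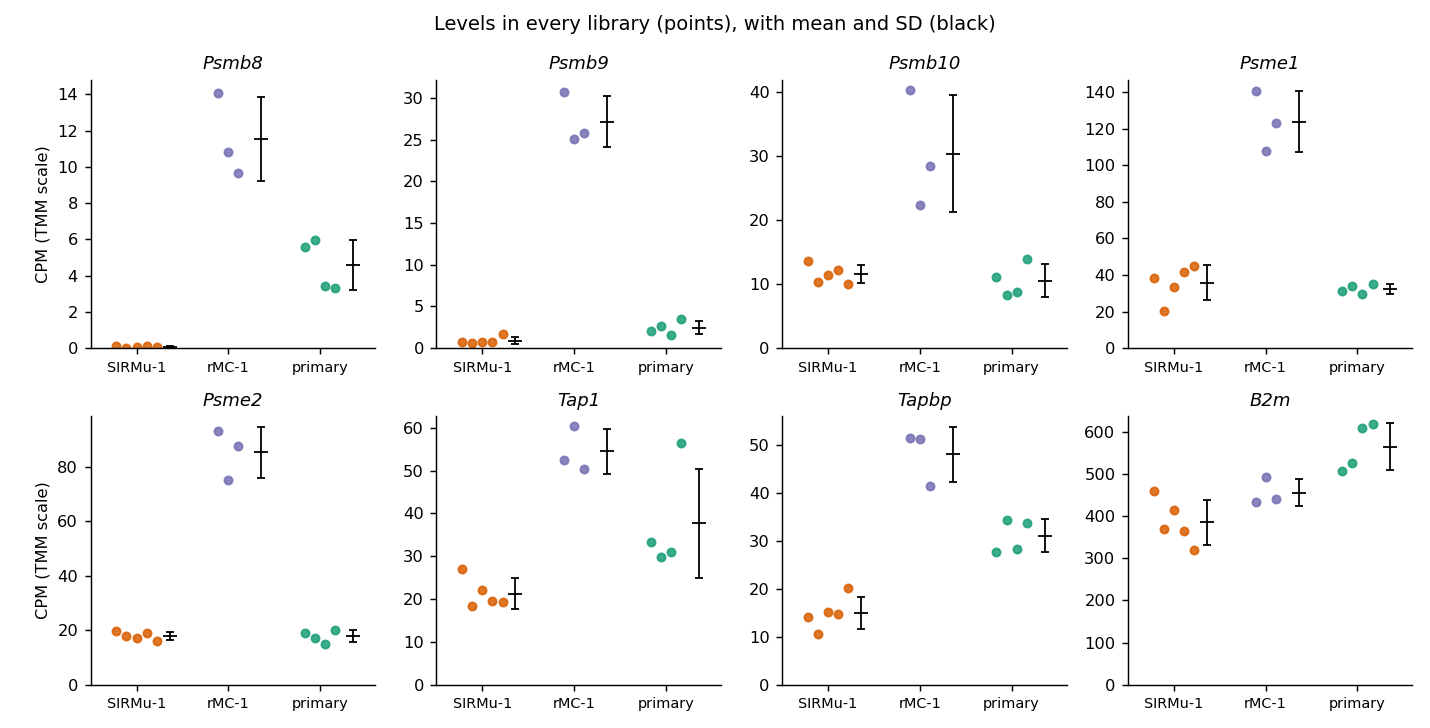
Level of each member in CPM on the TMM scale (y axis) in every library (points) of SIRMu-1, rMC-1 and primary cultures, with mean and SD in black. Psmb8 stood between 0 and 0.107 CPM in the 5 SIRMu-1 libraries and between 3.31 and 5.95 CPM in the 4 primary libraries.

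Psmb8 encodes the inducible subunit with chymotrypsin-like activity, and it was nearly absent from SIRMu-1. The reads numbered 3, 0, 2, 3 and 2 in SIRMu-1 replicates 1 to 5, then 495, 525 and 366 in rMC-1, and 141, 159, 77 and 75 in primary cultures. The groups did not overlap, and no SIRMu-1 library passed 3 reads, whatever its passage or drugs. Levels averaged 0.0726 ± 0.0425 CPM in SIRMu-1 (n = 5), 11.5 ± 2.31 CPM in rMC-1 (n = 3) and 4.57 ± 1.39 CPM in primary cultures (n = 4). The log2 fold change was -5.92 ± 0.46 in SIRMu-1 over primary (adjusted p = 5.281e-06) and 1.33 ± 0.39 in rMC-1 over primary (adjusted p = 0.00914). Since SIRMu-1 held only 10 reads in all, the ratio is better read from the summed reads, which were 65.7-fold lower in SIRMu-1 than in primary cultures (exact 95% interval 35.4 to 138, for counting error only). Against rMC-1 they were 160.9-fold lower (87.2 to 336.3).

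Psmb9, the inducible subunit that replaces the caspase-like one, stood highest in rMC-1. It had 0.711, 0.661, 0.702, 0.757 and 1.69 CPM in SIRMu-1 replicates 1 to 5, then 30.7, 25.0 and 25.8 CPM in rMC-1, and 2.09, 2.69, 1.57 and 3.44 CPM in primary cultures. The rMC-1 libraries lay far above all others. SIRMu-1 and primary cultures overlapped through SIRMu-1 replicate 5, grown with drugs at passage 20, which was above the lowest primary library. Psmb9 rose in rMC-1 by 3.47 ± 0.35 on the log2 scale over primary (adjusted p = 4.829e-06) and fell in SIRMu-1, with a log2 fold change of -1.44 ± 0.31 (adjusted p = 0.00312). With the 2 drug-treated SIRMu-1 libraries alone against the primary cultures, all of which had the drugs, the value was -1.02 and the call was lost (adjusted p = 0.0895).

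Psmb10, the inducible partner of the trypsin-like site, was raised in rMC-1. Levels were 13.6, 10.4, 11.4, 12.2 and 10.1 CPM in SIRMu-1, then 40.3, 22.4 and 28.5 CPM in rMC-1, and 11.0, 8.31, 8.72 and 13.9 CPM in primary cultures. SIRMu-1 and primary cultures overlapped over most of their range, and all rMC-1 libraries lay above them. The log2 fold change was 0.13 ± 0.20 in SIRMu-1 over primary (adjusted p = 0.617) and 1.53 ± 0.23 in rMC-1 over primary (adjusted p = 8.529e-05). Thus the 3 inducible subunits differed in SIRMu-1, with values of -5.92, -1.44 and 0.13 against primary cultures. The differences between these values were not tested.

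Each inducible subunit takes the place of a constitutive one, Psmb8 of Psmb5, Psmb9 of Psmb6 and Psmb10 of Psmb7. Psmb5 was called higher in SIRMu-1 (log2 fold change 0.55 ± 0.14, adjusted p = 0.00862) and in rMC-1 (0.39 ± 0.16, adjusted p = 0.0459), both over primary cultures. Psmb6 was called higher in SIRMu-1 (0.56 ± 0.15, adjusted p = 0.0102), and Psmb7 in rMC-1 (0.64 ± 0.16, adjusted p = 0.00385). Between SIRMu-1 and rMC-1, edgeR called none of the 3. Psmb7 was near the threshold there (-0.37 ± 0.16, adjusted p = 0.0538) and was called lower in 9 other settings, with values of -0.82 to -0.37, DESeq2 among them (-0.40, adjusted p = 0.0355). Psmb8 took 0.0596 ± 0.0338% of the reads of its pair in SIRMu-1, 9.53 ± 1.51% in rMC-1 and 5.31 ± 2.16% in primary cultures. Psmb9 took 1.24 ± 0.744% of its pair in SIRMu-1, 30.8 ± 2.45% in rMC-1 and 4.74 ± 1.75% in primary cultures. Psmb10 took 8.14 ± 0.616% of its pair in SIRMu-1, 15.2 ± 2.75% in rMC-1 and 8.98 ± 1.62% in primary cultures. Reads depend on transcript length, so a share is compared between cells and not between pairs. For Psmb10 the shares of SIRMu-1 and primary cultures overlapped, and for the other pairs every SIRMu-1 share lay below every primary one.

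**Figure D2:**
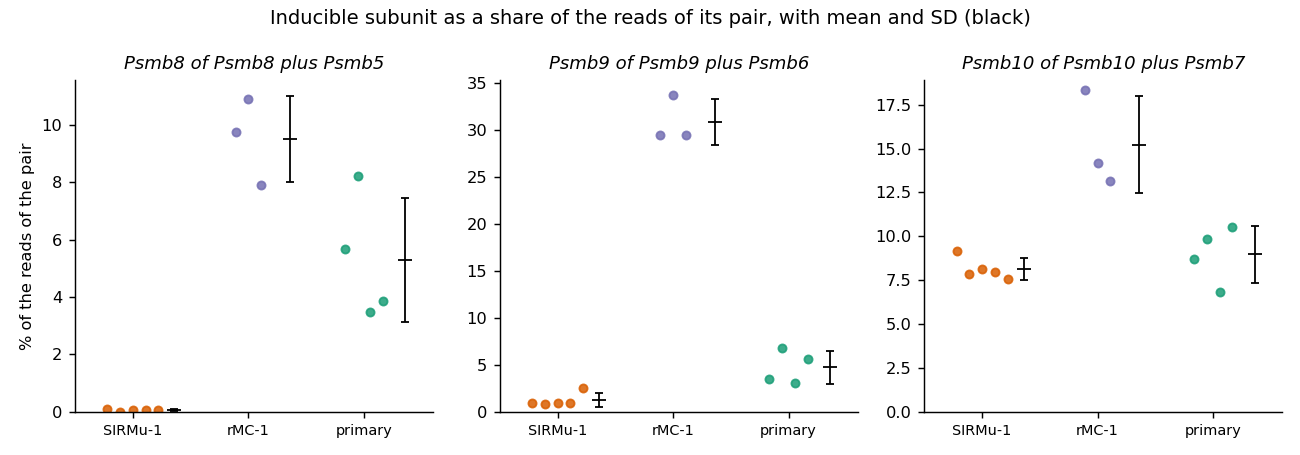
Reads of each inducible subunit in % of the reads of its inducible and constitutive pair (y axis) in every library (points) of SIRMu-1, rMC-1 and primary cultures, with mean and SD in black. Psmb9 made up 29.4% to 33.6% of its pair in rMC-1, 0.854% to 2.57% in SIRMu-1 and 3.06% to 6.78% in primary cultures.

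Other proteasome genes were called mostly higher, where called. The shares of all tested genes called higher were 21.7% in SIRMu-1 over primary and 31.9% in rMC-1 over primary. Of 11 other subunits of the 20S core tested, 5 were called higher and 0 lower in SIRMu-1 over primary, and 9 higher and 0 lower in rMC-1 over primary, with medians of 0.29 and 0.70. Psma6 had the highest value in SIRMu-1 (0.49 ± 0.11, adjusted p = 0.00295) and Psmb2 the lowest (-0.02 ± 0.12, not called). In rMC-1 the range ran between 1.21 ± 0.12 for Psma5 (adjusted p = 3.337e-06) and -0.01 ± 0.17 for Psma3 (not called). Of 18 subunits of the 19S cap, 0 were called in SIRMu-1 over primary, where values ran between 0.30 for Psmd14 and -0.42 for Psmd8. These 2 had an unadjusted p under 0.05, and DESeq2 called 0 of the 18. In rMC-1 over primary 9 were called higher and 1 lower, with Psmd3 at 1.17 ± 0.12 (adjusted p = 4.418e-06) and Psmd6 at -0.36 ± 0.13 (adjusted p = 0.0249). Of 6 other activators and assembly factors tested, 2 were called higher in SIRMu-1 and 3 in rMC-1, led in both by the assembly chaperone Psmg4 (0.75 ± 0.15 and 1.36 ± 0.17). The inhibitor Psmf1 was lowest in both, with -0.25 ± 0.13 and -0.16 ± 0.15, neither called.

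Both PA28 subunits were higher in rMC-1. Psme1, its alpha subunit, had 38.4, 20.4, 33.7, 41.6 and 45.2 CPM in SIRMu-1, then 140.8, 107.6 and 123.4 CPM in rMC-1, and 31.0, 33.8, 29.5 and 35.0 CPM in primary cultures. Psme2, its beta subunit, had 19.9, 17.9, 17.0, 19.0 and 16.1 CPM in SIRMu-1, then 93.1, 75.0 and 87.7 CPM in rMC-1, and 19.1, 17.3, 15.1 and 20.2 CPM in primary cultures. For both genes, rMC-1 stood apart from overlapping SIRMu-1 and primary libraries. Psme1 rose in rMC-1 by 1.94 ± 0.22 on the log2 scale over primary (adjusted p = 1.093e-05) and Psme2 by 2.25 ± 0.13 (adjusted p = 8.925e-08). In SIRMu-1 over primary, the values were 0.15 ± 0.19 for Psme1 (adjusted p = 0.553) and 0.01 ± 0.11 for Psme2 (adjusted p = 0.973), and the sign of the second turned in other processing. SIRMu-1 over rMC-1 gave -1.79 ± 0.20 for Psme1 and -2.25 ± 0.12 for Psme2. The genes lie near each other on chromosome 15, with Emc9 between them, and Emc9 was not called in rMC-1 over primary (log2 fold change -0.51, adjusted p = 0.0806).

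Tap1, the ABC transporter subunit encoded beside Psmb9, fell in SIRMu-1. It had 27.1, 18.3, 22.2, 19.5 and 19.3 CPM in SIRMu-1, then 52.5, 60.5 and 50.4 CPM in rMC-1, and 33.3, 29.8, 31.0 and 56.5 CPM in primary cultures. Every SIRMu-1 library lay below every primary one, while primary replicate 4 reached the level of rMC-1. The log2 fold change was -0.82 ± 0.19 in SIRMu-1 over primary (adjusted p = 0.00469), and the call was lost when libraries with the same file code were summed (-0.91, adjusted p = 0.0600). In rMC-1 over primary it was 0.53 ± 0.22 (adjusted p = 0.0449), a call that 9 other settings lost with values between 0.43 and 0.59 and adjusted p of 0.0506 to 0.125. Without primary replicate 4 it was 0.79 (adjusted p = 0.000852). The ratio of Tap1 to Psmb9 reads was 26.9 ± 9.87 in SIRMu-1, 2.03 ± 0.358 in rMC-1 and 15.8 ± 3.60 in primary cultures, so that rMC-1 stood apart from the overlapping ranges of the other cells.

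Tap2, the partner of Tap1, had 0 reads in all SIRMu-1 and primary libraries and 2 reads in rMC-1 replicate 1. A count of 0 in a library allows up to 3 reads, which corresponds to 0.106 CPM in SIRMu-1 and 0.124 CPM in primary cultures on average per library, for counting error only. No difference was detectable. Tap1, its partner encoded nearby on chromosome 20, had 515 or more reads in each of the same libraries. Whether the gene model used in the counting covers the whole of Tap2 is not known here, so its near-zero counts are not read as absence of the transcript.

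Tapbp followed the same order. It had 14.1, 10.7, 15.2, 14.7 and 20.1 CPM in SIRMu-1, then 51.4, 51.2 and 41.3 CPM in rMC-1, and 27.7, 34.3, 28.3 and 33.6 CPM in primary cultures. None of the groups overlapped. The log2 fold change was -1.05 ± 0.16 in SIRMu-1 over primary (adjusted p = 0.000353), 0.63 ± 0.18 in rMC-1 over primary (adjusted p = 0.00845) and -1.68 ± 0.17 in SIRMu-1 over rMC-1 (adjusted p = 8.142e-06).

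B2m was the member that followed the others least. It had 459.8, 368.4, 413.6, 364.9 and 320.3 CPM in SIRMu-1, then 433.7, 493.2 and 439.3 CPM in rMC-1, and 505.7, 526.2, 608.0 and 617.0 CPM in primary cultures. Primary cultures were highest and did not overlap with SIRMu-1 or rMC-1, and the 2 lines overlapped. B2m fell in SIRMu-1, with a log2 fold change of -0.55 ± 0.12 (adjusted p = 0.00298). It was -0.31 ± 0.14 in rMC-1 over primary (adjusted p = 0.0602), where 4 other settings, DESeq2 among them, called it lower (-0.36 to -0.31, adjusted p = 0.0395 to 0.0487). In SIRMu-1 over rMC-1 it was -0.24 ± 0.13 (adjusted p = 0.123). Scaling by library totals instead of TMM turned the rMC-1 value to 0.16 and moved that between the lines to -0.69, which was then called (adjusted p = 0.000763). That scaling moved the median of all genes in rMC-1 over primary to 0.32, against -0.15 with TMM.

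**Figure D3:**
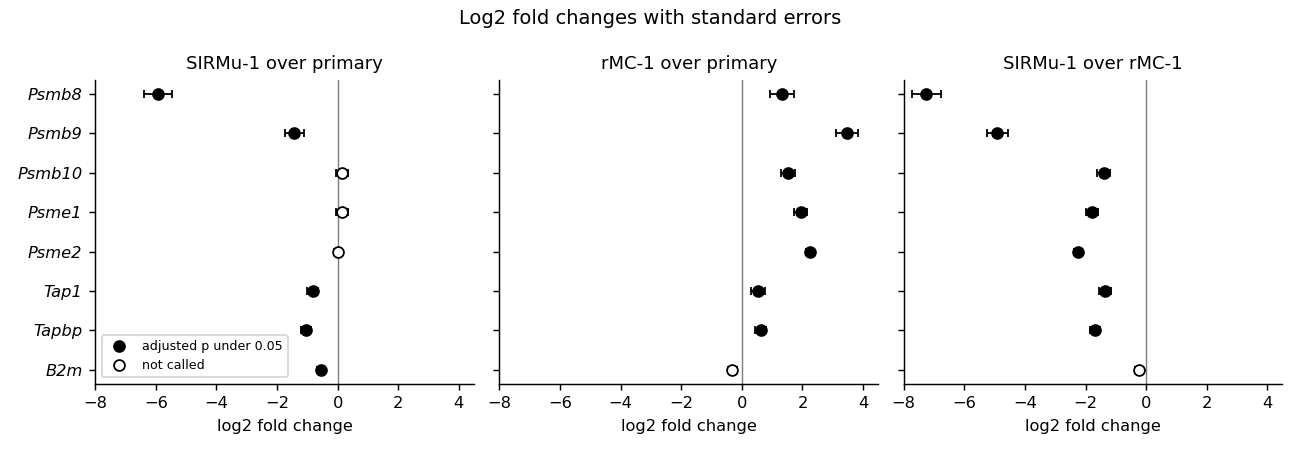
Log2 fold change of each tested member (points, with SE as bars) for SIRMu-1 over primary, rMC-1 over primary and SIRMu-1 over rMC-1. Psmb8 had the lowest value in SIRMu-1 over primary, -5.92, and Psmb9 the highest in rMC-1 over primary, 3.47.

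Over the 12 libraries, Pearson's r between the log2 level of a member and the mean of the other tested members was highest for Psmb9 (0.96) and lowest for B2m (0.37), as a description of points that share 3 cell sources. The genes outside the list closest to the members' mean were Rab15 (r = 0.99), Prkch (0.986), Ccdc77 (0.981), Tp53i11 (0.981) and Tmem243 (0.980). Closest to Psmb8 alone were Elmo1 (0.984), LOC500956 (0.982), RT1-CE10 (0.982), Dram1 (0.981) and the interferon-induced GTPase Gbp2 (0.980). Gbp2 averaged 0.935 CPM in SIRMu-1, 93.4 CPM in rMC-1 and 18.5 CPM in primary cultures.

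Class I heavy chains, the RT1 genes that B2m and tapasin serve, were mostly lower in SIRMu-1. Of 22 class I and class I-like genes tested, 0 were called higher and 16 lower in SIRMu-1 over primary (median -1.22). Among all tested genes, 24.4% were called lower there. In rMC-1 over primary 11 were higher and 5 lower (median 0.52), and in SIRMu-1 over rMC-1 2 were higher and 17 lower (median -2.20). Among all tested genes, 31.9% were higher and 38.9% lower in rMC-1 over primary. In SIRMu-1 over rMC-1 the shares were 32.7% and 30.5%. Reads mapping to several places were set aside in the counting, so genes with near-identical copies, as RT1 genes are, have uncertain values. RT1-A2, a classical class I gene, averaged 19.6 ± 4.99 CPM in SIRMu-1, 134.6 ± 13.6 CPM in rMC-1 and 34.2 ± 11.6 CPM in primary cultures. It rose in rMC-1 (1.98 ± 0.27, adjusted p = 4.365e-05) and was lower in SIRMu-1 (-0.80 ± 0.23, adjusted p = 0.0156), a call lost in 4 settings, among them without primary replicate 4 (-0.54, adjusted p = 0.0523). RT1-CE5 averaged 10.7 ± 1.86 CPM in SIRMu-1, 46.4 ± 5.23 CPM in rMC-1 and 58.9 ± 10.7 CPM in primary cultures, and fell in SIRMu-1 over primary (-2.46 ± 0.16, adjusted p = 1.531e-06). In rMC-1 it was not called (-0.34 ± 0.18, adjusted p = 0.104). The neonatal Fc receptor heavy chain Fcgrt, which also pairs with B2m, fell in SIRMu-1 (-1.17 ± 0.15) and in rMC-1 (-1.97 ± 0.18).

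At the ends of the class I list, RT1-N3 had the highest value in SIRMu-1 (0.43 ± 0.34, not called) and rose in rMC-1 (3.12 ± 0.39, adjusted p = 2.645e-05). RT1-N2 had no read in SIRMu-1, which made it at least 26.2-fold lower than in primary cultures and at least 9.29-fold lower than in rMC-1, at a floor of 3 counts over the group. RT1-CE6 had the highest value in rMC-1 (4.71 ± 0.59, adjusted p = 2.359e-05) and Cd1d1, a lipid-presenting class I-like molecule, the lowest (-2.88 ± 0.52, adjusted p = 0.000423). RT1-A1, chosen after its values were seen, had a log2 fold change of -0.71 ± 0.18 in SIRMu-1 over primary (adjusted p = 0.00641). Its reads set the ratio of RT1-A2 to RT1-A1 at 1.29 ± 0.0945 in SIRMu-1, 4.29 ± 0.189 in rMC-1 and 1.36 ± 0.404 in primary cultures.

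The partners of loading and trimming split. Over all tested genes, 46.1% were called in SIRMu-1 over primary and 70.8% in rMC-1 over primary. Of 8 loading chaperones, 0 were called higher and 1 lower in SIRMu-1 over primary, and 0 higher and 6 lower in rMC-1 over primary, so most did not follow the members in rMC-1. The 1 that fell in SIRMu-1 was Tapbpl, a tapasin relative that edits peptides (-0.95 ± 0.18, adjusted p = 0.00140), and it was not called in rMC-1 (0.28 ± 0.21, adjusted p = 0.233). Calreticulin (Calr) was highest of the list in SIRMu-1 (0.16 ± 0.13, not called), and the chaperone Hspa5 lowest in rMC-1 (-1.11 ± 0.16, adjusted p = 8.121e-05). Of 7 peptide-trimming enzymes tested, 1 was called higher and 2 lower in SIRMu-1, and 3 higher and 1 lower in rMC-1. Both totals were below the shares over all tested genes. Erap1, which trims peptides in the endoplasmic reticulum, followed the members, with -1.06 ± 0.15 in SIRMu-1 (adjusted p = 0.000253) and 0.66 ± 0.17 in rMC-1 (adjusted p = 0.00525). Tpp2, a cytosolic peptidase, was higher in SIRMu-1 (0.44 ± 0.11, adjusted p = 0.00823). Thop1, which breaks peptides down, was higher in rMC-1 (1.72 ± 0.18, adjusted p = 5.416e-06), and the aminopeptidase Lnpep was lower there (-1.08 ± 0.19, adjusted p = 0.000355).

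**Figure D4:**
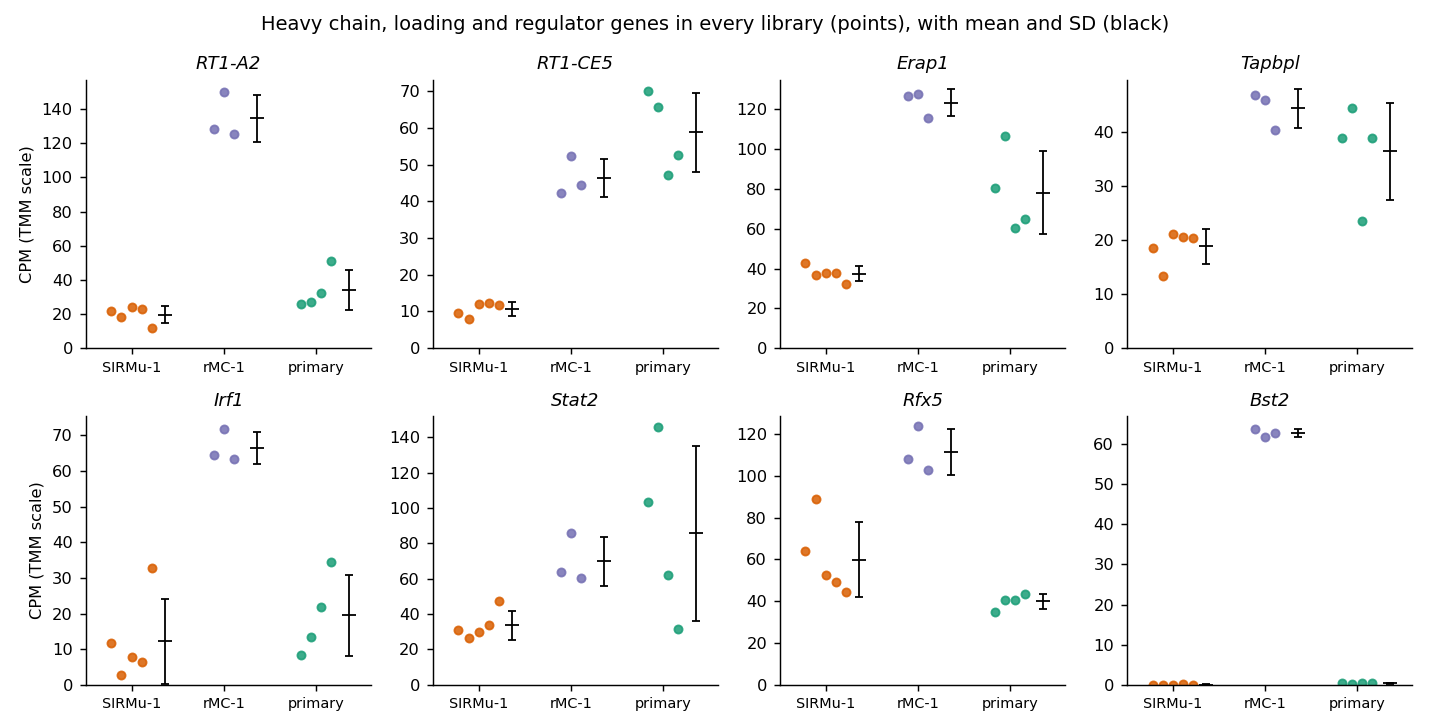
Level in CPM on the TMM scale (y axis) of heavy chain, loading and regulator genes in every library (points) of SIRMu-1, rMC-1 and primary cultures, with mean and SD in black. Bst2 stood between 61.7 and 63.7 CPM in rMC-1 between 0 and 0.0987 CPM in SIRMu-1 and between 0.150 and 0.447 CPM in primary cultures.

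The regulators of these genes moved in both directions. Of 19 tested, 4 were called higher and 3 lower in SIRMu-1 over primary, and 11 higher and 3 lower in rMC-1 over primary. Over all tested genes, 46.1% and 70.8% were called in these comparisons. The first total was below that share and the second near it. Irf1, which in human cells activates Tap1 and Psmb9, averaged 12.3 ± 11.9 CPM in SIRMu-1, where replicate 5 was highest at 32.9 CPM, 66.5 ± 4.58 CPM in rMC-1 and 19.5 ± 11.3 CPM in primary cultures. It rose in rMC-1 (1.77 ± 0.68, adjusted p = 0.0343) and was not called in SIRMu-1 (-0.67 ± 0.60, adjusted p = 0.384), but without SIRMu-1 replicate 5 it was lower and called (-1.47, adjusted p = 0.0254). Stat2 and Irf9, which act at the ISRE after type I interferon, fell in SIRMu-1 (-1.35 ± 0.35, adjusted p = 0.00857, and -0.79 ± 0.17, adjusted p = 0.00350) and were not called in rMC-1 (-0.29 ± 0.40 and -0.09 ± 0.20).

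Rfx5, part of the complex at class I and class II promoters, rose in SIRMu-1 (0.58 ± 0.18, adjusted p = 0.0221) and in rMC-1 (1.48 ± 0.21, adjusted p = 5.632e-05). The NF-kappa B subunit Rela rose in both, by 0.91 ± 0.09 and 0.82 ± 0.10, and Irf7 fell in both, with -1.44 ± 0.33 and -1.73 ± 0.39. Irf8 had the lowest value in rMC-1 (-3.97 ± 1.10, adjusted p = 0.00658), at very low levels. It averaged 0.0320 CPM in rMC-1 and 0.567 CPM in primary cultures, where replicates 1 to 4 had 32, 21, 2 and 3 reads. Of 9 interferon receptor and signalling genes tested, 1 was higher and 4 lower in SIRMu-1, and 3 higher and 4 lower in rMC-1. These totals were near the shares called over all tested genes, 46.1% and 70.8%. Jak2, a kinase of the interferon gamma receptor, was lower in SIRMu-1 (-0.99 ± 0.22, adjusted p = 0.00313) and higher in rMC-1 (1.34 ± 0.24, adjusted p = 0.000414). Ifngr2, a chain of that receptor, was higher in SIRMu-1 (0.47 ± 0.17, adjusted p = 0.0345), a call lost in 11 settings. The feedback inhibitor Socs3 rose in rMC-1 (1.81 ± 0.45, adjusted p = 0.00342), where the type I receptor chain Ifnar1 fell (-0.93 ± 0.13, adjusted p = 5.314e-05).

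Of 31 other interferon-stimulated genes tested, edgeR called 0 higher and 21 lower in SIRMu-1 over primary (median -2.05), and 14 were higher and 3 lower in rMC-1 over primary (median 0.62). Among all tested genes, 24.4% were lower in SIRMu-1 over primary, 31.9% higher in rMC-1 over primary and 30.5% lower in SIRMu-1 over rMC-1. In SIRMu-1 over rMC-1, edgeR called 0 higher and 26 lower (median -2.58), and Icam1 was higher at an unadjusted p under 0.05 and called by DESeq2 (0.61, adjusted p = 0.0448). Irgm, an interferon-induced GTPase, had no read in SIRMu-1, at least 535-fold lower than in primary cultures and at least 298-fold lower than in rMC-1, at a floor of 3 counts over the group. Bst2, a membrane protein that tethers viruses, had the highest value in rMC-1 (7.50 ± 0.45, adjusted p = 1.498e-07), and the adhesion molecule Icam1 the lowest (-1.51 ± 0.28, adjusted p = 0.000530). Tmem173, the sensor adaptor also called STING, had the highest in SIRMu-1 (1.00 ± 0.43, adjusted p = 0.0762). It was the 1 gene of the list higher in SIRMu-1 over primary at an unadjusted p under 0.05, and 4 other settings called it higher (0.98 to 1.46), DESeq2 among them (adjusted p = 0.0415).

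Some of these calls outside the member list were lost in other settings. In rMC-1 over primary, that of Psmb5 was lost in 10 settings, of Psmd6 in 9, of RT1-N2 in 8 and of Irf1 in 6. In SIRMu-1 over primary, that of RT1-CE6 was lost in 5 settings, of Rfx5 in 3, those of Stat2, Irf9 and Jak2 in 2 each, and those of Irf7, Psmb5, Psmb6, Tapbpl and Tpp2 in 1 each.

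Cells of the immune system also express these genes. Summed microglia and macrophage markers (15 genes) were between 1.35 and 4.82 CPM in SIRMu-1, between 2.61 and 4.27 CPM in rMC-1 and between 4.07 and 23.4 CPM in primary cultures. Aif1, Cx3cr1, C1qa, C1qb, C1qc, Trem2, P2ry12 and Cd163 had no read in SIRMu-1 or rMC-1, so 8 of the 15 were at 0 in each line and 1, Cd163, in primary cultures. T and NK cell markers (7 genes) summed to 0.206 to 0.562 CPM in SIRMu-1, 4.19 to 4.56 CPM in rMC-1 and 0.158 to 2.59 CPM in primary cultures, and Cd3d and Cd3e were at 0 in all. In rMC-1 the whole sum was Lck, at 4.42 ± 0.202 CPM, and the other 6 genes had no read. Endothelial markers (10 genes) summed to 35.1 to 57.3 CPM in SIRMu-1, 7.69 to 11.5 CPM in rMC-1 and 12.1 to 29.0 CPM in primary cultures. In SIRMu-1 most of the sum was Tek, at 32.0 ± 7.47 CPM, while Cldn5 had no read and Cdh5, Emcn, Kdr and Tie1 had 3, 2, 1 and 1 reads over the 5 libraries. The part of such cells in the differences from primary cultures was not tested.

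Gentamicin and amphotericin B had no called effect on these genes in SIRMu-1, with 2 libraries grown with the drugs and 3 without. Those with the drugs were at passages 11 and 20 and those without at 6, 11 and 11. Drugs and passage are thus partly mixed in this comparison. EdgeR called 0 of the 8 members and 0.0% of all tested genes, while 433 genes (3.82%) had an unadjusted p under 0.05 and DESeq2 called 3. Tapbp had 15.2 and 20.1 CPM with the drugs, against 10.7 to 14.7 CPM without them (log2 fold change 0.42 ± 0.19, adjusted p = 0.978). It was the 1 member with an unadjusted p under 0.05. Psme2 had 16.1 to 17.0 CPM with the drugs and 17.9 to 19.9 CPM without (-0.19 ± 0.15, adjusted p = 0.978). Tapbp and Psme2 were the 2 members whose ranges did not overlap, as in 16.0% of all tested genes. Psmb8 was at 0.0749 to 0.0826 CPM with the drugs and 0 to 0.107 CPM without.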

How the data were processed

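The authors deposited 1 table per library with raw read counts of 17315 genes. The submitters' processing notes name STAR 2.5.3a, cutadapt 1.8.1, edgeR 3.18.1 and build rn6, with roles, annotation and strand setting not given in the sources used here. Reads of no gene were left out of library sizes: outside annotated genes 24.2% to 30.3% of a library, mapping to several places 9.47% to 12.3%, unmapped 1.84% to 2.54% and ambiguous 0.15% to 0.19%. Reads in genes were 55.8% to 63.0%. The unmapped count was inferred from a number in the header of each library's counts, and it is part of the total behind all these shares. The authors' log2 CPM table was not used here.

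The tests used edgeR 4.0.16 under R 4.3.3 (TMM factors, expression filter, quasi-likelihood model). The filter left 11321 genes tested and 5994 not tested. A fit of 3 group means over 12 libraries had 9 residual degrees of freedom, and one with SIRMu-1 split by drugs had 8. Benjamini-Hochberg adjustment ran over all tested genes, with a threshold of 0.05. DESeq2 1.42.0 was an alternative, beside other scalings, filters, sample sets and libraries left out in turn. Log2 CPM for correlations used a prior count of 2. The procedure was run on simulated counts with the same known changes in both lines, and the outcome is not given here. Changes between the lines were not simulated.

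The members and gene lists were chosen with earlier results of these data known. All members are named. From each other list the text names the tested genes with the largest and smallest log2 fold change in SIRMu-1 and in rMC-1 over primary, the constitutive catalytic subunits, the regulators fixed by name, the 3 most abundant class I genes, and the 5 genes most like the members and most like Psmb8. Cell marker lists departed from that rule and are given mainly by summed levels, with values of some single genes beside them. The values of 1 gene named by the rule are not reported here. Of the gene symbols, 14810 matched a RefSeq symbol on GRCr8 and 2114 a synonym only. Promoters have GRCr8 coordinates, and the counts come from rn6.

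Same-numbered libraries of different groups did not deviate together (10 pairs, r of -0.0626 to 0.0978, 0 over 0.1), so the numbers were not taken to pair them. Some libraries of a group share a code in their file names, whose meaning is unknown here.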

Additional observations from a re-analysis of the deposited data

Results flagged for a closer look

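In 10 cases 1 library stood far from the others of its group, judged by the gap to its nearest neighbour over the range of the group. Only SIRMu-1 and primary cultures were examined in this way, and rMC-1, with 3 libraries, was not. Chance alone gives about 1 such case in 20 groups, or 5.3 of the 106 pairs of gene and group examined, and the genes share their libraries. Among the members, Psmb9 was at 1.69 CPM in SIRMu-1 replicate 5 (others 0.661 to 0.757) and Tap1 at 56.5 CPM in primary replicate 4 (others 29.8 to 33.3). Among heavy chain genes, RT1-CE6 was at 0.529 CPM in primary replicate 4 (others 0.187 to 0.237) and Fcgrt at 139.1 CPM in SIRMu-1 replicate 2 (others 100.4 to 107.3). Among proteasome genes, primary replicate 2 was low in Psmb7 at 76.0 CPM (others 115.9 to 119.0) and in Psmb2 at 68.2 CPM (others 82.6 to 85.5). SIRMu-1 replicate 5 was low in Psmb5 at 100.2 CPM (others 124.2 to 132.4) and in Psma5 at 76.9 CPM (others 84.7 to 86.6). SIRMu-1 replicate 2 was high in Psma3 at 42.9 CPM (others 26.4 to 30.6) and in Psmf1 at 48.9 CPM (others 35.9 to 39.0). Causes were not tested.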

How the results depend on the processing

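The number of members called was 5 in SIRMu-1 over primary, 7 in rMC-1 over primary and 7 in SIRMu-1 over rMC-1, and other settings kept each count within 1.5 times. With the replicate number as a block, the counts were 5, 7 and 7, although the numbers were not found to pair the samples; the block turned Psmb2 in SIRMu-1 over primary to 0.03 and Psma6 in SIRMu-1 over rMC-1 to -0.01. No paired analysis was possible for the drugs because libraries with and without them share no replicate number. An alternative chosen after seeing the data, without SIRMu-1 replicate 2 and primary replicate 4 together, gave 5, 7 and 7, and turned Irf1 in SIRMu-1 over primary to 0.01. Over all genes, SIRMu-1 over primary gave 3173 calls with same-code libraries summed and 3415 with only the drug-treated SIRMu-1 libraries, against 5220. For the drugs, DESeq2 called 3 genes and edgeR 2 without SIRMu-1 replicate 3, against 0.

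These values turned direction; the cause was not tested. In SIRMu-1 over primary, Psme2 was -0.02 with RLE factors, DESeq2 and only the 2 groups, -0.01 with the 1 CPM filter, -0.11 with drug-treated SIRMu-1 only and -0.07 to 0.06 with each library left out. Psmb2 was -0.10 to 0.01 with each left out, and Irf1 0.07 with drug-treated SIRMu-1 only. In rMC-1 over primary, library totals gave B2m 0.16, Psma3 0.47, Psmd8 0.32, Psmd6 0.11, Psmf1 0.31, Calr 0.26, Tpp2 0.47, Ifngr2 0.20, Stat2 0.20, Irf9 0.38 and RT1-CE5 0.13. Without a filter, Psma3 and Tpp2 were 0.01, and with only the 2 groups 0.05. With same-code libraries summed, Psma3 was 0.08, Psmd8 0.00, Tpp2 0.07, Stat2 0.01 and Irf9 0.13. With each library left out, Psma3 was -0.06 to 0.17, Tpp2 -0.07 to 0.10, Irf9 -0.19 to 0.07, Stat2 -0.57 to 0.09, Psmd8 -0.29 to 0.11 and Psmf1 -0.22 to 0.03. In SIRMu-1 over rMC-1, library totals gave Psmb5 -0.30, Psmb6 -0.18, Psma6 -0.44, Psma3 -0.22, Psmd6 -0.19, Calr -0.07, Rela -0.35, Irf7 -0.15 and Ifnar1 -0.08. Psma6 was -0.02 with RLE factors and DESeq2, -0.10 with same-code libraries summed and -0.20 to 0.02 with each library left out, where Rela was -0.04 to 0.13 and Psmb5 -0.08 to 0.21. For the drugs, Tap1 was 0.00 with library totals and -0.17 to 0.13 with each library left out, where B2m was -0.31 to 0.05, Psmb8 -0.37 to 0.65, Psme1 -0.02 to 0.43 and Psmb9 -0.02 to 1.24.

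Depth limits Psmb8 in SIRMu-1, with 10 reads in all. Reads are not independent molecules, so intervals cover counting error only.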

Other observations

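Class II presentation was barely detected. Of 12 class II genes, 3 had enough reads to be tested, and the summed level was 0.524 to 5.37 CPM in SIRMu-1, 4.59 to 6.16 CPM in rMC-1 and 0.225 to 7.27 CPM in primary cultures. Ciita, the class II transactivator and a relative of Nlrc5, averaged 2.18 ± 1.14 CPM in SIRMu-1, 0.00878 ± 0.0152 CPM in rMC-1, where 1 read was counted in all, and 1.41 ± 1.65 CPM in primary cultures (SD, n = 5, 3 and 4). EdgeR called it lower in rMC-1 over primary (adjusted p = 0.00182) and not in SIRMu-1 over primary (log2 fold change 0.63 ± 0.84, adjusted p = 0.565). Thus Ciita was lowest in the line where most class I loading genes were highest. The invariant chain Cd74 was lower in rMC-1 over primary (-3.19 ± 1.19, edgeR adjusted p = 0.0312), a call lost in 6 settings, at levels under 1 CPM in all group means. RT1-Db1 averaged 0.227 CPM in SIRMu-1, 4.71 CPM in rMC-1 and 0.909 CPM in primary cultures and was not called in rMC-1 over primary (2.38 ± 1.10, edgeR adjusted p = 0.0709). In 5 other settings edgeR called it higher there (2.45 to 3.75, adjusted p = 0.0107 to 0.0494).

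Genes beside Psmb10 on chromosome 19 were read as well. Lcat, a plasma cholesterol-esterifying enzyme, rose in rMC-1 over primary (log2 fold change 1.68, edgeR adjusted p = 9.492e-05), as did Ctrl (1.62, adjusted p = 0.0119), while Slc12a4 fell (-1.11, adjusted p = 0.000224). Pskh1 was not called (0.26, edgeR adjusted p = 0.0970). In that comparison 70.8% of all tested genes were called. Reads of neighbours that overlap cannot be told apart where strand was not used.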
